A study of Mus musculus with 13 samples.

Results

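The keratin gene family was examined in skin tumours of G9a conditional knockout (cKO) and G9a wild-type (WT) mice. Members were all probe sets whose only gene symbol in the array's annotation is a keratin symbol (Krt and a number, with or without a letter), which leaves out keratin-associated proteins. The rule found 50 probe sets of 45037, and they read 41 genes of 17097. By the sample titles there were 7 tumours of G9a cKO mice and 6 of G9a WT mice, 1 array each. Both groups had received the carcinogen DMBA (0.25 mg/ml) and the tumour promoter TPA (0.02 mg/ml) on shaved back skin for 6 weeks from an age of 8 weeks, and then TPA alone (up to 20 weeks). The labels call every sample a squamous cell carcinoma tumour. Neither the promoter behind the conditional knockout nor the deleted part of the gene is named in the labels. Whether tumours share a mouse is not stated, and p-values therefore measure only the spread between these samples.

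Keratins are the intermediate filament proteins of epithelial cells, and each filament is built from pairs of an acidic (type I) and a basic (type II) keratin. In the epidermis, basal cells make Krt5 with Krt14, and cells that move upwards and differentiate switch to Krt1 with Krt10. Krt6a, Krt6b and Krt16 are stress keratins that wounding, TPA and tumour growth induce, whereas Krt8 and Krt18 belong to simple epithelia and are known from late stages of mouse skin carcinogenesis. Follicle sheath and hair shaft keratins are made in the growing hair. In the GRCm38.p6 annotation the type I genes and the type II genes form a cluster each, on chromosomes 11 and 15, and Krt18 lies beside its partner Krt8 on chromosome 15.

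The start regions of 4 keratin genes are shown because the results turn on them. The deposited values of Krt18 and Krt8 were high on the same 4 arrays. Krt10 differed the opposite way in the array pairs with a large gap in Krt18, though not in every pair. Krt5 rose by little without overlap of the groups. Each sequence runs from 250 bases before to 50 bases after the start of the gene, 5′ to 3′ on the gene's own strand, as given by RefSeq for GRCm38.p6. The windows are chr15:102027966-102028265 on the plus strand, chr15:102004293-102004592 on the minus strand, chr11:99389315-99389614 on the minus strand and chr15:101712856-101713155 on the minus strand. Capitals mark matches to 3 short motifs, searched on both strands: the TATA box (TATAAA), the AP-1 motif (TGANTCA), which many TPA-induced genes carry, and the SP1 motif (GGGCGG).
Krt18: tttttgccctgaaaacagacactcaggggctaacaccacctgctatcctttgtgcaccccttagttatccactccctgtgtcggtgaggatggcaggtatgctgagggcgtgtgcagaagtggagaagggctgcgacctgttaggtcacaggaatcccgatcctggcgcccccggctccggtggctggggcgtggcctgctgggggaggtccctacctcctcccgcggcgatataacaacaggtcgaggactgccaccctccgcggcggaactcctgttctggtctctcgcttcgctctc
Krt8: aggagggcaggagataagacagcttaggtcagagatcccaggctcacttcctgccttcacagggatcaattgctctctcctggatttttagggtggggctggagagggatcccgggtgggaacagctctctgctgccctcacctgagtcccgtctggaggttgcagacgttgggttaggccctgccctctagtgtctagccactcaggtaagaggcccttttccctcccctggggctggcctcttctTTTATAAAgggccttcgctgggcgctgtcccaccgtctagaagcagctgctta
Krt10: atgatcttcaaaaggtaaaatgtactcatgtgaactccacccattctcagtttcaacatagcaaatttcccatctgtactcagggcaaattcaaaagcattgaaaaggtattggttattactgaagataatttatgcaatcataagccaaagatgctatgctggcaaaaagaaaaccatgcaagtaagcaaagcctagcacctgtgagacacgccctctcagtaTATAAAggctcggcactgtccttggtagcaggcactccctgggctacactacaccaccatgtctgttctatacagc
Krt5: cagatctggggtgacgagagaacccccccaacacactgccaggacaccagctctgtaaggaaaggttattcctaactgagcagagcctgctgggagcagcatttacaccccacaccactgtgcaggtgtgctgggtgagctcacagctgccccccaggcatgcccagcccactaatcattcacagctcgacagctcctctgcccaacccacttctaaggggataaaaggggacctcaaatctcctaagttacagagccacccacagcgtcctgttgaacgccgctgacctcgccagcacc
TATAAA was present in the windows of Krt8 and Krt10, and none of the 3 motifs was present in those of Krt18 and Krt5. Of the 41 measured keratin genes, 26 matched the promoter table, with 27 windows. TATAAA occurred in 14 of these 27 windows, against 13.6% of all 32851 windows of the same length. AP-1 letters occurred in 2 of 27 (both of Krt13) against 7.81% of all windows, and SP1 letters in 2 of 27 (Krt7 and Krt75) against 35.7%. In the Krt8 window the match spans the annotated start itself, and overlaps a match on the other strand.

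The deposited values are log2 expression after RMA, and the number of arrays limits their precision. Levels of different probe sets are not compared, and nonspecific control probe sets give the background: their upper quartile was 4.31 and their highest value 6.56. The targeted gene Ehmt2, which encodes G9a, was read by 2 probe sets. Probe set 2 had 6.01 ± 0.10 in cKO tumours and 8.33 ± 0.19 in WT tumours (SD, n = 7 and 6; exact permutation p = 0.000583), and probe set 1 had 7.42 ± 0.04 and 7.29 ± 0.19 (exact permutation p = 0.131). In 6 pairs of consecutive arrays of a group, the values mirrored each other about the group mean, with correlations of their deviations over all probe sets between -0.953 and -0.881. The array of cKO replicate 1 had no such partner, and its deviations had an SD of 0.0585, against 0.176 to 0.218 on the other arrays. No label explains either pattern. The spread between pairs is therefore largely missing from these values, and a fit with a term for each pair was run beside the fit without it. A pair term cannot restore that spread, so the p-values of both fits rest mainly on the spread within pairs. The permutation test of Ehmt2 treats the arrays as independent, which mirrored arrays are not, so its p-values share this limit. The words rose and fell are kept for genes with a limma adjusted p under 0.05 in both fits. Nonspecific controls differed between the groups by -0.307 to 0.082, so their largest difference was a lower value on cKO arrays. Differences below 0.307 in size, of either sign, are given as measured and are not set apart from those of controls. The 18 hybridisation controls, which are added to every sample, were all higher on cKO arrays, by 0.0573 to 0.493.

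The squamous label was checked on epithelial genes outside the keratin family. All 8 measured genes of the squamous list lay above every nonspecific control value, with list means of 10.86 to 11.19 on cKO arrays and 10.94 to 11.23 on WT arrays. Cdh1 (E-cadherin) and Dsp (desmoplakin) fell, by 0.56 and 0.20. Markers of other cells moved to different extents. Of all genes 26.2% were called in both fits, 15.2% higher and 11.0% lower. The share called was 70% for fibroblast, 60% for leukocyte, 60% for adipocyte, 50% for endothelial and 50% for muscle markers. It did not exceed that of all genes for squamous (25%), secretory (25%), melanocyte (20%) and sebaceous markers (14.3%). Of 10 fibroblast markers 7 rose, and the list mean lay at 6.29 to 6.77 on cKO arrays against 5.10 to 5.75 on WT arrays. Of 10 endothelial markers 5 rose (list means 5.86 to 6.44 against 4.80 to 5.94), and of 10 macrophage and leukocyte markers 6 rose (5.09 to 5.51 against 4.56 to 4.67). Of these 3 lists 4, 1 and 4 markers lay below 4.31, and no marker is listed at 0. Of 10 striated muscle markers 4 rose and 1 fell (list means 4.71 to 4.75 against 4.53 to 4.60). Of 5 adipocyte markers 2 rose and 1 fell (4.93 to 5.61 against 5.05 to 5.70), and of 7 sebaceous markers 1 rose (6.57 to 7.11 against 6.75 to 6.96). No adipocyte marker called in both fits differed by more than the largest difference of a nonspecific control. Of the adipocyte markers 2 lay below 4.31, as did 2 of the muscle markers, and no muscle marker lay above every control value. Of 5 melanocyte markers 1 rose (4.49 to 4.63 against 4.52 to 4.72), and of 8 secretory and mammary gland markers 2 fell and none rose (5.19 to 5.53 against 5.30 to 5.35). The part of these cells in the keratin values was not tested. In such bulk tissue, fewer cells of a type and less RNA per cell cannot be told apart.

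Across the family, the stress keratin Krt6a fell in cKO tumours, the simple keratins Krt7 and Krt20 rose by small amounts, and the differentiation keratins Krt1 and Krt10 varied so widely within both groups that no difference between them passed the test. Without the pair term 11 keratin genes were higher and 7 lower in cKO tumours (limma, adjusted p under 0.05), together 43.9% of the 41, against 46.5% of all 17097 genes (26.1% higher and 20.4% lower). In both fits 6 were higher and 2 lower, 19.5% of the family against a background of 26.2% (15.2% higher and 11.0% lower). The share of keratins called was thus no higher than that of all genes. The groups did not overlap for 8 keratin genes, against 23.0% of all genes. Only 2 members, Krt6a and Krt27, were called in both fits with a difference larger in size than that of any nonspecific control. Of all genes 15.1% were (7.67% higher and 7.46% lower). The difference of Krt27 (0.34) was smaller than the largest of a hybridisation control (0.493). Over probe sets, 12 of the 50 were higher and 9 lower without the pair term, against 47.9% of all 45037 probe sets (24.4% higher and 23.4% lower). In both fits 7 keratin probe sets were higher and 4 lower, against 27.0% (13.9% and 13.1%). Of them 4 had differences larger in size than those of every nonspecific control, against 15.5% (6.52% higher and 9.01% lower). The groups did not overlap for 9 keratin probe sets, against 24.2% of all probe sets. The median difference of the family was 0.07, against 0.02 for all genes. By chromosome, 3 of 20 type I cluster genes rose and none fell, and 3 of 21 genes of the type II cluster rose and 2 fell.

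**Figure D1:**
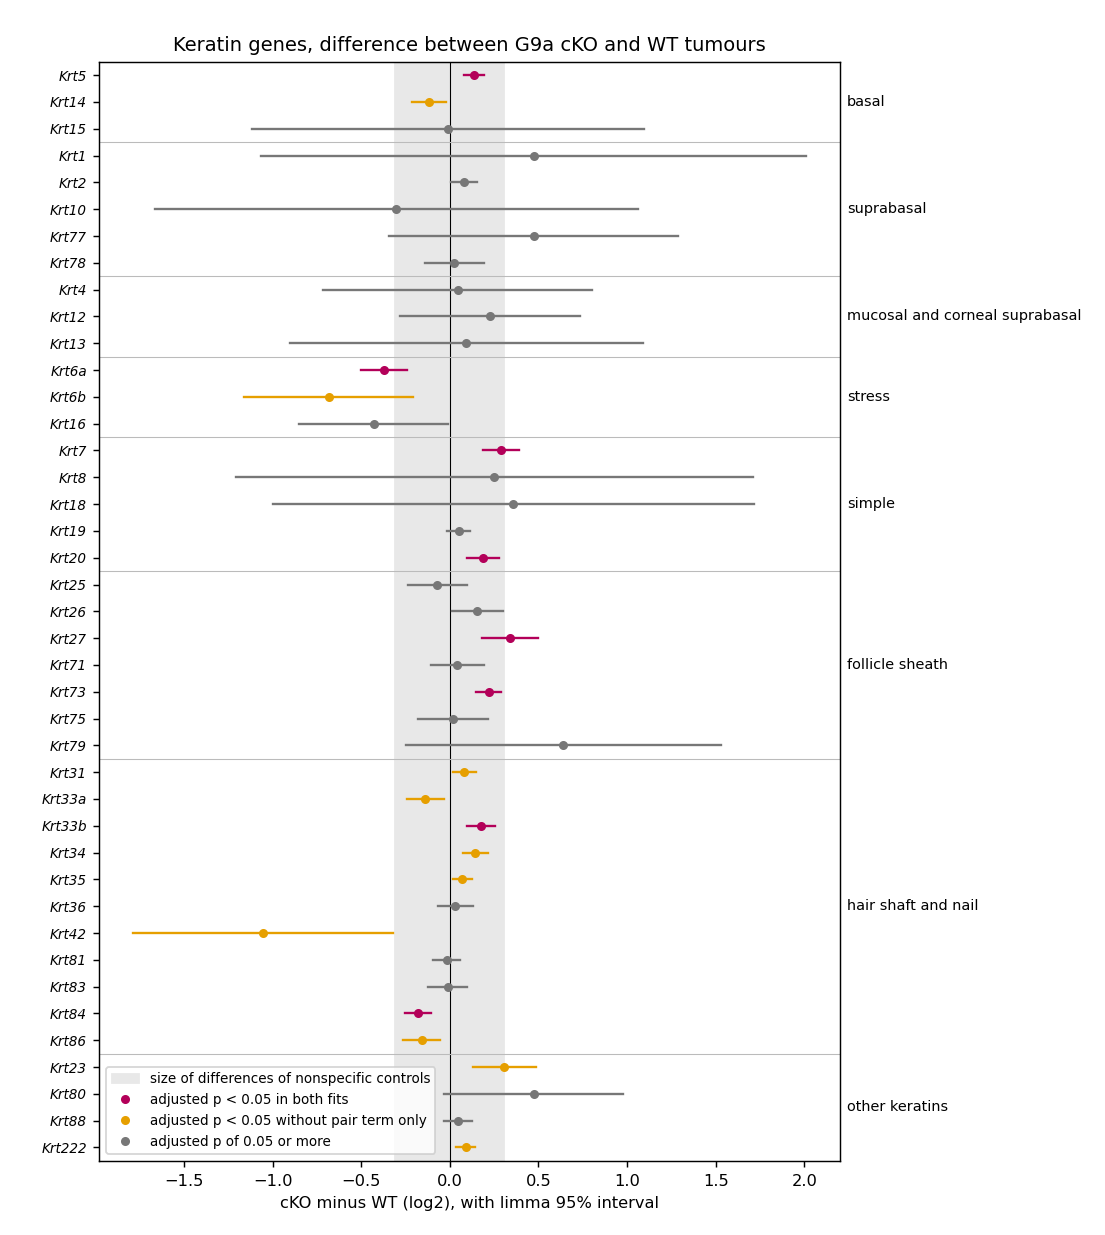
Difference between cKO and WT tumours (log2) for the 41 keratin genes by class, each at its brightest probe set by mean; points are estimates, lines limma 95% intervals, colours the outcome of both fits, and the grey band spans differences no larger than 0.307, the largest of a nonspecific control. Nonspecific controls themselves differed by -0.307 to 0.082, so the band is wider than their range on its right side. Krt6a, Krt6b, Krt16 and Krt42 lie left of the band, and the widest intervals belong to Krt1, Krt8, Krt10, Krt15 and Krt18.

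Several keratins varied widely within both groups. The pooled within-group SD exceeded 0.5 for 10 of 41 keratin genes (24.4%), against 3.97% of all genes and 3.68% of the 1710 genes of highest level. These 10 were Krt1, Krt4, Krt8, Krt10, Krt13, Krt15, Krt18, Krt42, Krt77 and Krt79. No test of this share was made, and the mirrored arrays mean that the SD holds little of the spread between pairs.

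**Figure D2:**
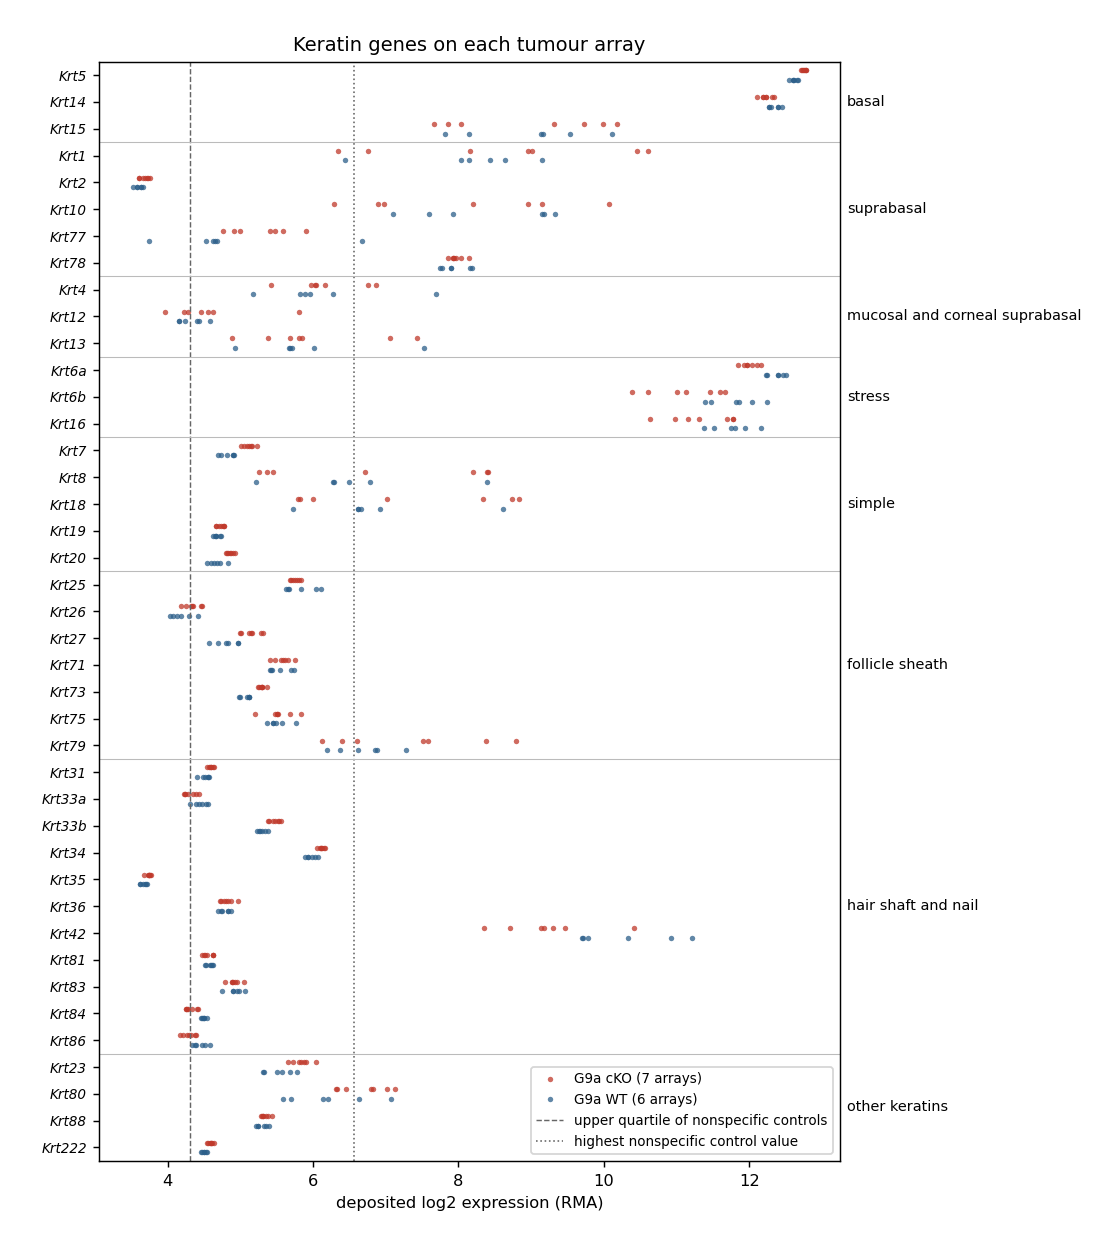
Deposited log2 expression of the 41 keratin genes on every array, by class, with cKO arrays drawn above WT arrays for each gene; the dashed line marks the upper quartile (4.31) and the dotted line the highest value (6.56) of the nonspecific controls. Krt5, Krt14 and the stress keratins lie far right, Krt1, Krt8, Krt10, Krt15 and Krt18 spread over several log2 units, and most hair keratins lie between the lines with little spread.

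Basal keratins. Krt5 rose slightly and its partner Krt14 had a slightly lower value in cKO tumours. Krt5 read 12.75, 12.78, 12.72, 12.78, 12.72, 12.74 and 12.76 on cKO arrays (replicates 1, 2, 3, 5, 6, 8 and 9), against 12.61, 12.67, 12.60, 12.60, 12.66 and 12.55 on WT arrays (replicates 2, 4, 6, 7, 8 and 9). Every cKO value lay above every WT value, yet the difference was only 0.13 (95% interval 0.08 to 0.19, limma adjusted p = 0.000988, with the pair term 0.0357). It exceeded the highest rise of a nonspecific control (0.082). It was smaller than the largest size of their differences (0.307) and than the largest rise of a hybridisation control (0.493). The highest value of any probe set on any array was 13.17, so Krt5 stood near the top of the scale. Krt14 had 2 probe sets with differences of -0.12 and -0.08. The first averaged 12.23 ± 0.08 in cKO tumours and 12.35 ± 0.08 in WT tumours (SD, n = 7 and 6), and its limma adjusted p was 0.0431 without and 0.179 with the pair term. The difference of Krt14 was -0.07 after quantile normalization (limma adjusted p = 0.183).

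Krt15, a keratin of basal cells and of the hair follicle bulge, differed far more between tumours than between genotypes. It read 9.32, 9.99, 7.66, 9.73, 8.04, 7.86 and 10.18 on cKO arrays, against 8.14, 10.11, 9.54, 7.81, 9.13 and 9.16 on WT arrays. Low and high tumours occurred in both groups, which overlapped over nearly their whole range. The difference was -0.01 with a 95% interval from -1.12 to 1.09 (limma adjusted p = 0.986).

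Suprabasal keratins. None of the 5 measured suprabasal keratins passed the test. Krt1 read 8.96, 10.61, 6.34, 9.02, 8.16, 6.75 and 10.45 on cKO arrays, against 8.63, 8.15, 9.14, 6.44, 8.44 and 8.04 on WT arrays. Both extremes of Krt1 were cKO tumours, and the WT values lay between them. They are the mirrored arrays of 1 pair, replicates 2 and 3, so a high value in one comes with a low value in the other. The lowest and highest tumour differed 19.3-fold, while the group difference was 0.47 (95% interval -1.06 to 2.01; limma adjusted p = 0.609). Its partner Krt10 read 8.20, 10.07, 6.28, 9.15, 6.90, 6.98 and 8.96 on cKO arrays, against 7.92, 9.33, 9.17, 7.10, 7.60 and 9.16 on WT arrays. Again the lowest and the highest tumour were cKO replicates 3 and 2 of the same mirrored pair, 13.8-fold apart. The group difference of Krt10 was -0.30 (95% interval -1.67 to 1.06; limma adjusted p = 0.719).

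The other suprabasal members were steadier or dim. Krt78, a keratin of differentiating keratinocytes, averaged 7.97 ± 0.09 in cKO tumours and 7.94 ± 0.19 in WT tumours, a difference of 0.03 (limma adjusted p = 0.804). Krt77, which is made in sweat gland ducts and in mouse interfollicular epidermis, read 4.76 to 5.90 on cKO arrays (median 5.41), against 3.74 to 6.68 on WT arrays. Its difference of 0.47 did not pass (limma adjusted p = 0.32). The WT extremes are the mirrored arrays of 1 pair, replicate 4 with 6.68 and replicate 2 with 3.74, so leaving out either shifts the WT mean. Without replicate 4 the difference of Krt77 was 0.84 (limma adjusted p = 0.00816), and without replicate 2 it was 0.26 (limma adjusted p = 0.585). Krt2, a late suprabasal keratin, lay below 4.31 on every array. It averaged 3.68 in cKO tumours and 3.60 in WT tumours (limma adjusted p = 0.0638).

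Keratins of mucosal and corneal epithelia did not differ between genotypes by their brightest probe sets. Krt13, a suprabasal keratin of oral and oesophageal epithelium that also appears in mouse skin tumours, read 5.85, 7.43, 5.38, 5.81, 5.68, 7.06 and 4.89 on cKO arrays, against 5.69, 5.71, 4.93, 7.53, 6.01 and 5.68 on WT arrays. The tumours of cKO replicates 2 and 8 and of WT replicate 7 stood above the rest. They were also the 3 highest for Krt4, the partner of Krt13 in mucosa, with 6.75, 6.87 and 7.70, while the other tumours had 5.18 to 6.27. Each is the higher array of its mirrored pair for both genes, so tumours of different pairs cannot be ranked by this. Group differences were 0.09 for Krt13 (95% interval -0.90 to 1.09) and 0.04 for Krt4 (-0.71 to 0.80). Probe set 3 of Krt13 was dim, at 4.19 ± 0.08 in cKO tumours and 3.93 ± 0.06 in WT tumours, and was called higher in both fits by 0.26 (limma adjusted p = 0.000241, and 0.0129 with the pair term), and probe set 2 differed by -0.07. The probe sets of Krt13 thus disagree, and the called one lay below the upper quartile of the controls. Krt12, the keratin of corneal epithelium, differed by 0.23 (limma adjusted p = 0.448).

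Stress keratins. All 3 measured stress keratins had lower means in cKO tumours, and Krt6a passed both fits on each of its 3 probe sets. On its brightest probe set Krt6a read 11.97, 12.11, 11.98, 12.16, 11.84, 11.93 and 12.04 on cKO arrays, against 12.47, 12.23, 12.39, 12.39, 12.25 and 12.51 on WT arrays. No cKO value reached the lowest WT value. Krt6a fell by 0.37 (95% interval -0.50 to -0.24), a 1.29-fold change, with a limma adjusted p of 0.000285 and 0.0127 with the pair term. Probe sets 2 and 3 fell by 0.52 and 0.45, with limma adjusted p of 0.00288 and 0.004 (0.0353 and 0.0429 with the pair term). The suffix of probe set 3 (x) marks probes that can also bind other transcripts, and Krt6a and Krt6b are close copies, so their signals may not be fully separate.

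Krt6b and Krt16 leaned the same way with more spread. Krt6b read 11.13, 11.46, 11.01, 11.60, 10.61, 10.39 and 11.66 on cKO arrays, against 12.04, 11.48, 11.86, 11.82, 11.39 and 12.25 on WT arrays. Its difference of -0.68 (95% interval -1.16 to -0.21) had a limma adjusted p of 0.0212 without and 0.106 with the pair term. Krt16, the type I partner of Krt6 keratins, averaged 11.33 ± 0.44 in cKO tumours and 11.76 ± 0.28 in WT tumours. Its difference of -0.43 (95% interval -0.85 to -0.01) did not pass either fit (limma adjusted p = 0.0861 and 0.228). Both genes were lowest in the tumours of cKO replicates 6 and 8, each the lower array of its mirrored pair. Among all genes, the 1710 of highest level had a median difference of -0.11, and of 0.02 after quantile normalization, where Krt6a had -0.32 (limma adjusted p = 0.000285) and Krt6b -0.61 (limma adjusted p = 0.0225). In the annotation Krt5 follows directly on Krt6a and Krt6b among the keratins of its cluster, so neighbouring keratin genes differed in opposite directions.

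Krt42, a type I keratin listed here with hair and nail keratins and lying near Krt16 in its cluster, had the largest difference of the family. It read 9.14, 8.35, 10.42, 9.47, 8.71, 9.30 and 9.18 on cKO arrays, against 9.78, 10.33, 9.70, 11.21, 10.93 and 9.71 on WT arrays. The tumour of cKO replicate 3 lay within the WT range, and the other cKO tumours lay below all WT values. The difference was -1.05 (95% interval -1.79 to -0.32), a limma adjusted p of 0.0215 without and 0.102 with the pair term. Its only probe set also carries the suffix x, so other transcripts may contribute to it.

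**Figure D3:**
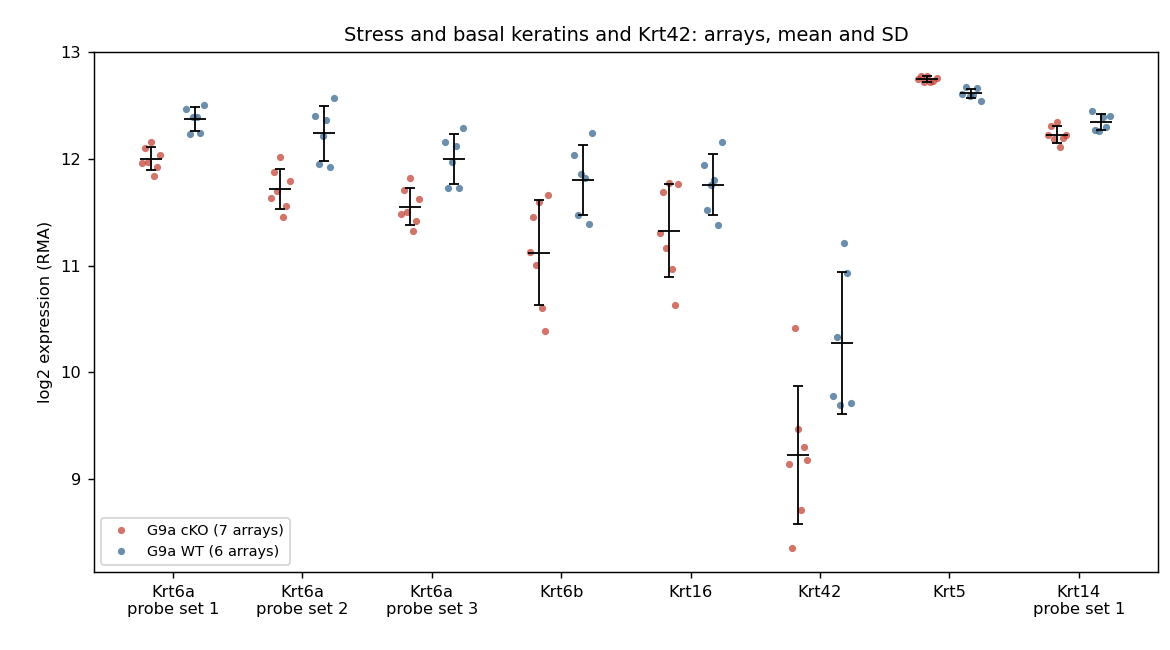
Log2 expression on each array for the 3 probe sets of Krt6a and for Krt6b, Krt16, Krt42, Krt5 and the first probe set of Krt14, with cKO arrays left of WT arrays; black bars give mean and SD (n = 7 cKO and 6 WT). The cKO points of Krt6a probe set 1 lie wholly below the WT points, those of Krt5 wholly above them, and the groups overlap elsewhere.

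Simple keratins. Krt7 and Krt20 rose by less than the size of the largest control difference, and Krt8, Krt18 and Krt19 did not pass. Krt7, a keratin of ducts and glands, read 5.01 to 5.24 on cKO arrays (median 5.12), against 4.70 to 4.92 on WT arrays, with no overlap. Its difference was 0.29 (95% interval 0.19 to 0.39; limma adjusted p = 0.000271, and 0.0136 with the pair term). Krt20, best known from intestinal epithelium, averaged 4.86 ± 0.04 in cKO tumours and 4.67 ± 0.10 in WT tumours, a difference of 0.19 (limma adjusted p = 0.00263, and 0.043 with the pair term). Both genes lay between the upper quartile and the highest value of the controls. Krt19, made in many simple epithelia and in the hair follicle, differed by 0.05 (limma adjusted p = 0.179).

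The deposited values of Krt18 and Krt8 were high on the same few arrays of both genotypes. Krt18 read 7.02, 5.80, 8.83, 5.82, 8.73, 8.33 and 6.00 on cKO arrays, against 6.62, 6.62, 5.72, 8.62, 6.66 and 6.92 on WT arrays. Krt8 read 6.72, 5.45, 8.20, 5.37, 8.41, 8.39 and 5.26 on cKO arrays, against 6.28, 6.49, 5.21, 8.40, 6.79 and 6.29 on WT arrays. The same 4 tumours, cKO replicates 3, 6 and 8 and WT replicate 7, had values above 8 for both genes, and no other tumour did. Each is the higher array of its mirrored pair. The spread between pairs is largely missing, so these values cannot rank tumours of different pairs. Group differences were 0.36 for Krt18 (95% interval -0.999 to 1.71; limma adjusted p = 0.664) and 0.25 for Krt8 (95% interval -1.21 to 1.71; limma adjusted p = 0.783). The second probe set of Krt8 followed the first, from 4.67 to 8.07 on cKO arrays and from 4.73 to 8.15 on WT arrays.

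Because neighbouring arrays mirror each other, tumours were compared within the 6 pairs, where a shift common to both arrays cancels. The pairs with a large gap were singled out after their values were seen, and no test was made. In all 3 cKO pairs and in 1 of 3 WT pairs Krt18 differed by over 2 log2 units. The tumour with more Krt18 had an excess of 3.03 (cKO replicate 3 over 2), 2.91 (6 over 5) and 2.33 (8 over 9), and of 2.90 in WT (7 over 6). Krt8 was higher by 2.75, 3.04, 3.13 and 3.18 in the same tumours. Krt10 had the opposite sign in all 4 pairs, with -3.78, -2.26, -1.98 and -2.08. Krt15 differed by -2.33, -1.69, -2.32 and -1.73, and Krt1 by -4.27, -0.86, -3.70 and -2.71. Krt79, a keratin of the follicle opening and sebaceous duct, differed by -0.97, -2.39, -2.26 and -0.51. Tumours rich in Krt8 and Krt18 thus had less Krt15, Krt1 and Krt10 than the neighbouring array in each of these 4 pairs. Other members of these classes shared this only in part. The sheath keratins Krt71 and Krt75 were lower in all 4 pairs, by smaller amounts (-0.35 to -0.09 and -0.63 to -0.01). Krt25, Krt26, Krt27 and Krt73 had mixed signs. Among suprabasal keratins Krt77 differed by -0.57, -1.14, -0.59 and 0.15. Krt78 differed by 0.28, -0.03, -0.10 and 0.39, and Krt2 by -0.15, 0.11, -0.07 and 0.05. The simple keratins differed little and with mixed signs, by -0.10 to 0.23 for Krt7, -0.08 to 0.01 for Krt19 and -0.06 to 0.10 for Krt20. The basal keratins Krt5 and Krt14 differed by -0.06 to 0.01 and by -0.23 to 0.13.

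The remaining pairs and keratins did not all follow. Between WT replicates 2 and 4 Krt18 differed by 0.003 and between WT replicates 9 and 8 by 0.26, whereas Krt10 differed by -1.41 (2 over 4) and 1.56 (9 over 8). In the pair of WT replicates 2 and 4, Krt15 differed by -1.97. Krt13 went with Krt18 in 2 of the 4 divided pairs (2.18 and 2.60) and against it in the others (-2.05 and -0.13). List means of markers were compared in the 4 divided pairs, again as the tumour with more Krt18 minus the other. They were -0.04, -0.33, -0.19 and -0.01 for the squamous list, and -0.03, 0.09, 0.03 and -0.07 for fibroblasts. The endothelial list was higher in all 4, by 0.38, 0.58, 0.24 and 0.33. The adipocyte list differed by -0.28, 0.53, -0.58 and 0.48, the sebaceous list by 0.17, 0.27, -0.54 and -0.07, and the leukocyte list by -0.02, 0.41, 0.01 and 0.05. The part of these cells in the keratin pattern was not tested. Whether the division is more common in cKO tumours cannot be judged from 3 pairs a group.

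**Figure D4:**
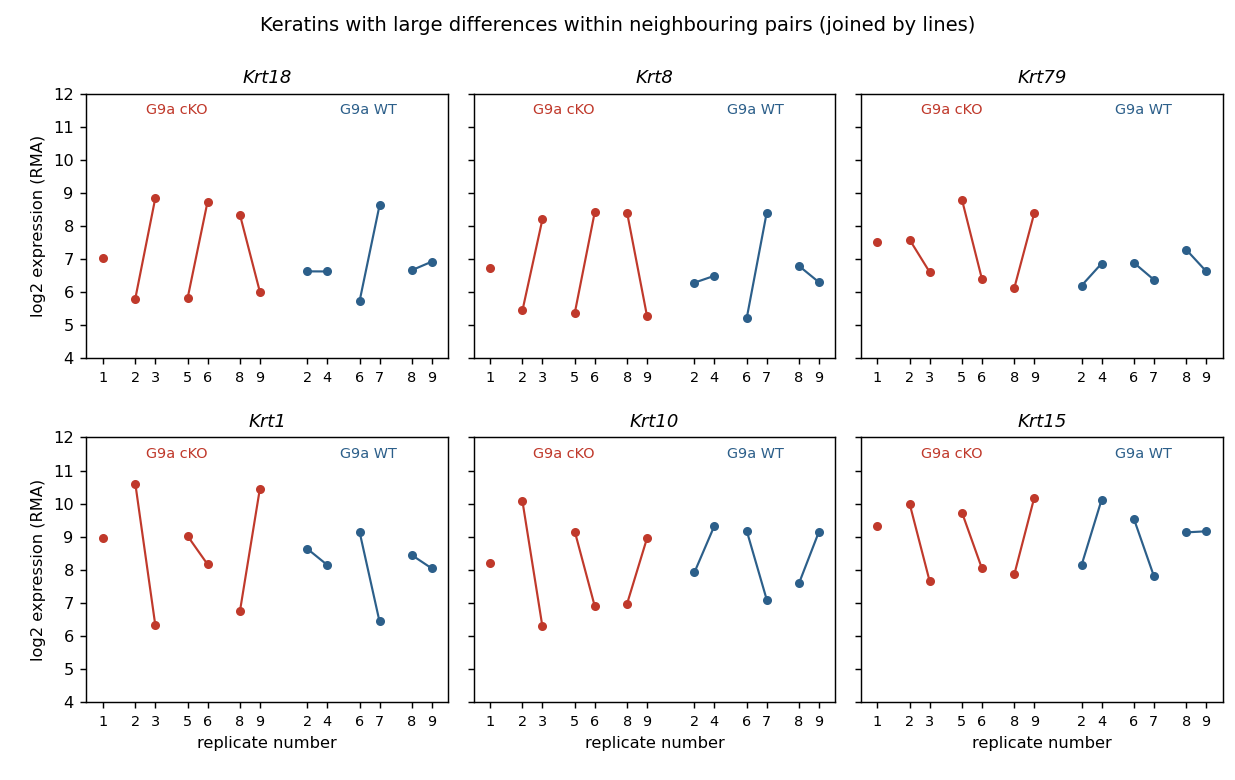
Log2 expression of Krt18, Krt8, Krt79, Krt1, Krt10 and Krt15 on every array, with lines joining neighbouring arrays of a pair, cKO at the left and WT at the right of each panel; cKO replicate 1 has no partner. Where Krt18 and Krt8 climb steeply within a pair, Krt1, Krt10 and Krt15 drop, and cKO replicate 1 sits near the middle of its group in each panel.

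Hair follicle sheath keratins. Of 7 measured sheath keratins, Krt27 and Krt73 rose and 5 did not pass. The share called in both fits was 28.6%, close to the 26.2% of all genes. Krt27, a type I keratin of the inner root sheath, read 5.15, 5.00, 5.32, 5.16, 5.12, 5.01 and 5.28 on cKO arrays, against 4.96, 4.69, 4.83, 4.81, 4.57 and 4.97 on WT arrays. The groups did not overlap, and the difference was 0.34 (95% interval 0.18 to 0.50; limma adjusted p = 0.00219, and 0.0345 with the pair term). Krt73, a type II keratin of the inner root sheath cuticle, averaged 5.29 ± 0.04 in cKO tumours and 5.07 ± 0.06 in WT tumours, a difference of 0.22 without overlap (limma adjusted p = 0.000149, and 0.00865 with the pair term). Both genes lay between the upper quartile and the highest value of the controls. The difference of Krt73 was smaller than the largest of a nonspecific control (0.307 in size). The sheath keratins Krt25, Krt26 and Krt71 differed by -0.07, 0.16 and 0.04 (limma adjusted p = 0.476, 0.0694 and 0.646). Krt75, of the companion layer, differed by 0.02. Krt79 had the largest difference of this class, 0.64 (95% interval -0.25 to 1.53), with 7.34 ± 1.02 in cKO tumours and 6.70 ± 0.39 in WT tumours (limma adjusted p = 0.217).

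Hair shaft keratins. The remaining hair keratins were dim, moved by little and went both ways. Leaving Krt42 aside, the 10 measured shaft keratins had group means between 3.67 and 6.12. Krt33b rose by 0.18 (5.47 ± 0.07 in cKO tumours and 5.30 ± 0.05 in WT tumours; limma adjusted p = 0.00173, and 0.0365 with the pair term). Krt84, of tongue and nail and of the hair cuticle, fell by 0.18 (4.32 ± 0.07 in cKO tumours and 4.50 ± 0.03 in WT tumours; limma adjusted p = 0.000964, and 0.0251 with the pair term). For both genes the groups did not overlap. Krt31, Krt34 and Krt35 were higher (0.08, 0.14 and 0.07) and Krt33a and Krt86 lower (-0.14 and -0.16) without the pair term only. Krt36, Krt81 and Krt83 differed by 0.03, -0.02 and -0.01. All these differences lie within the size of the largest difference of controls.

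Of the other keratins, Krt23 was higher by 0.31 without the pair term, less than the largest hybridisation control (5.84 ± 0.12 in cKO tumours and 5.53 ± 0.18 in WT tumours; limma adjusted p = 0.00787, and 0.0668 with it). Krt80, made in many epithelia, differed by 0.47 (limma adjusted p = 0.114), and by 0.64 without WT replicate 4 (limma adjusted p = 0.0214). The mirrored partner of that array, WT replicate 2, had the lowest WT value of Krt80, and without it the difference was 0.35 (limma adjusted p = 0.234). Krt88 differed by 0.04. Krt222, a keratin-like gene, differed by 0.09 on its first probe set, at 4.59 in cKO tumours and 4.50 in WT tumours, with no overlap (limma adjusted p = 0.00955, and 0.109 with the pair term), and by -0.02 on its second.

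Genes that work with keratins were counted in the same way. Of 14 measured linkers and filament-binding proteins, 3 were higher and 2 lower without the pair term (35.7%, against 46.5% of all genes), and 7.14% were called in both fits, against 26.2% of all genes. In both fits Dsp, which anchors keratin filaments at desmosomes, was the 1 called, with 12.27 ± 0.10 in cKO tumours and 12.47 ± 0.06 in WT tumours. Of 14 other intermediate filament genes, 3 were higher and 1 lower without the pair term (28.6%, against 46.5% of all genes). In both fits 1 passed (7.14%, against 26.2%). This was Ina, the gene of the neuronal filament protein alpha-internexin. Ina read 6.62, 7.09, 6.02, 6.50, 6.22, 6.30 and 6.47 on cKO arrays, against 4.81, 4.46, 4.73, 4.60, 4.40 and 4.75 on WT arrays, a rise of 1.83 (limma adjusted p = 1.39e-06, and 0.000961 with the pair term). That change exceeded every difference within the keratin family. Vim (vimentin), named after its values were seen, differed by 1.82 with a wide spread, 8.06 ± 0.73 in cKO tumours and 6.25 ± 1.33 in WT tumours (limma adjusted p = 0.0143, and 0.0775 with the pair term).

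Among 15 transcription factor genes linked to epidermal and hair keratins, 2 rose and 1 fell, 20% against 26.2% of all genes. Nfe2l2, the gene of the stress response factor Nrf2, which can induce Krt6a, Krt6b and Krt16, fell by 0.60, with 7.78 ± 0.23 in cKO tumours and 8.38 ± 0.25 in WT tumours (limma adjusted p = 0.00171, and 0.0223 with the pair term). Dlx3 and Foxn1, which act in hair differentiation, rose by 0.28 and 0.27 (limma adjusted p = 0.000261 and 0.000917). The epidermal factor genes Trp63 and Klf4 differed by 0.18 and -0.13 (limma adjusted p = 0.154 and 0.416), and the hair factor gene Hoxc13 by -0.26 (limma adjusted p = 0.273). Of 47 measured hair shaft protein genes, mostly keratin-associated proteins, 7 rose and 1 fell, 17.0% against 26.2% of all genes. The list median was 0.02, and -0.01 after quantile normalization, beside 0.02 and 0.04 for all genes. Of these 47 genes 25 lay below 4.31, and the 3 smallest p-values belonged to Krtap31-1 (0.17), Krtap9-1 (0.20) and Foxn1. Selenbp1, named after its values were seen, rose by 0.82, and Krtap6-2 fell by 0.31. They alone on this list passed both fits with differences larger in size than that of any nonspecific control.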

How the data were processed

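Total RNA of 13 tumours was hybridised to 1 array each. The authors deposited 1 log2 value for each probe set and array, made with RMA per the submitters' processing notes. No RMA version, scan date or later step is given in the sources used here. Of 45141 probe sets, 104 array controls were left out of the tests, and the other 45037 entered limma (version 3.58.1, R 4.3.3; lmFit and eBayes without covariates, two-sided, Benjamini-Hochberg over all 45037, threshold 0.05). A second fit added a term for each of the 6 neighbouring array pairs. Pairs were neighbours within a group whose deviations correlated below -0.8. For genes with several probe sets the one with the highest mean stood for the gene, and all keratin probe sets were also described. Of 45037 probe sets, 28898 had 1 symbol. All 41 keratin genes were found by gene number in the GRCm38.p6 annotation, with no symbol changed. The classes hold 55 symbols, and those with no member probe set were not analysed here.

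Members, classes and gene lists were chosen with earlier results of these data known. Every keratin gene could be named. Members of other lists were named where both fits called them, at most 4 a list by smallest p, and Cdh1, Trp63, Klf4, Hoxc13, Vim, Selenbp1 and Krtap6-2 were added after their values were seen. For Ehmt2 an exact two-sided permutation test used the 1716 ways to split the arrays. The fit was tested on simulated data. Alternatives were median centring, quantile normalization, filters on dim probe sets, fits over genes, a robust prior with a trend, weights for arrays, a block for the replicate number, a threshold of 0.01 and each array left out. Figures were drawn with matplotlib 3.10.9.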

Additional observations from a re-analysis of the deposited data

Results flagged for a closer look

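Within each group of arrays, the highest or lowest tumour was checked for a gap to its nearest neighbour that is large for the range of the group (Dixon's criterion). Of 82 such checks over 41 keratin genes, 3 were met. The usual rate of about 1 in 20 assumes independent values, which mirrored arrays are not, so this count cannot be compared with it. Krt77 stood apart at 6.68 in WT replicate 4, where the other WT tumours had 3.74 to 4.68. Krt12 stood apart at 5.81 in cKO replicate 2, with 3.97 to 4.62 in the other cKO tumours. Krt35 stood apart at 3.67 in cKO replicate 6, with 3.74 to 3.77 in the other cKO tumours, all below the upper quartile of the controls. Because neighbouring arrays mirror each other, a high tumour in a pair comes with a low one, as Krt77 at 3.74 in WT replicate 2 shows.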

How the results depend on the processing

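Without the pair term 11 keratin genes were higher and 7 lower in cKO tumours. With it the counts were 6 and 2, and after quantile normalization with it 5 and 2. Testing only probe sets above the 50th percentile gave 5 and 3, with 24 of the 41 genes left to test. A threshold of 0.01 left 9 higher and 2 lower. With the replicate number as a block (replicate block, arrays of numbers 2, 6, 8 and 9 only), 2 genes were higher and 5 lower. Same-numbered arrays did not deviate together in the deposited values (correlations of 0.05, -0.28, -0.13 and -0.06). The spread between mirrored pairs is largely missing, so this cannot show whether the number links samples. Leaving out each array in turn gave 9 to 13 genes higher and 5 to 7 lower, and without cKO replicate 1 the counts were 9 and 5. Of the 8 genes called in both fits, Krt6a and Krt84 stayed called under every alternative run on them. Krt5, Krt7, Krt27 and Krt73 missed the threshold with the replicate block alone, and Krt20 and Krt33b with it and with the pair term after quantile normalization. No call of any keratin gene turned its direction in 1006 values under 25 alternatives. Of these values 85 lost and 15 gained a call, and 33 of uncalled genes changed sign. The causes were not tested. For Ehmt2 the difference of probe set 1 was 0.24 after quantile normalization (limma adjusted p = 0.0138) and lay between 0.0745 and 0.173 with an array left out, called only without WT replicate 9 (limma adjusted p = 0.0466). Calls of Krt14, Krt31, Krt33a and Krt35 were lost when single arrays were left out, and Krt26 was called without WT replicate 4 (0.20, limma adjusted p = 0.0146), though not without its mirrored partner, WT replicate 2 (0.13, limma adjusted p = 0.139). Precision is limited by 13 arrays, by the missing spread between pairs and, for most hair keratins, by levels near those of nonspecific controls.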
